A study of Saccharomyces cerevisiae with 27 samples.

Results

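Ribosome biogenesis genes encode the proteins that build ribosomes in the nucleolus, and 58 such genes of budding yeast were followed here through a heat stress time course. The members were listed by gene symbol as factors of 90S, 40S and 60S pre-ribosome assembly, with earlier results of these data known. Of the 58, 57 were measured among 5656 genes that had a probe set naming 1 gene. No probe set named NOP10 alone, so it has no value here. The 57 comprise 3 box C/D and 3 box H/ACA small nucleolar ribonucleoprotein (snoRNP) genes, 6 UTP-A, 4 UTP-B and 3 Mpp10 complex genes, 17 further 90S and 40S factors and 21 factors of 60S assembly.

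In yeast, RNA polymerase I transcribes a long ribosomal RNA precursor that is modified, folded and cut in the nucleolus. Box C/D snoRNPs methylate its riboses and box H/ACA snoRNPs convert uridines to pseudouridine, each guided by a small nucleolar RNA. UTP-A, UTP-B, the Mpp10 complex and the U3 snoRNP assemble on the growing precursor as the 90S pre-ribosome, from which the 40S subunit descends, while a separate series of particles gives rise to the 60S subunit. The genes of these factors are known as a co-regulated regulon in yeast, whose transcripts fall under many stresses and in slow growth.

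RNA came from Saccharomyces cerevisiae X2180-1A, a laboratory strain, grown in 500 ml batch cultures under aeration, in a minimal glucose medium. Total RNA of 27 samples was hybridised to one-colour Affymetrix arrays, 3 samples labelled as biological replicates for each of 9 groups. The 3 control groups were kept at 28 °C and harvested after 0, 120 or 240 min, the 0 min cells being in mid-exponential growth. The 6 heat groups were shifted to 41 °C, which the culture reached within 5 min, and were sampled after 10, 30, 60, 120, 240 and 360 min. All groups share the strain and the medium, no gene was altered, and all heat samples come from cultures that were first grown at 28 °C. Each array carried RNA made from 20 µg of total RNA, so a signal is a share of the labelled RNA, and fewer cells with a transcript and less of it per cell cannot be told apart.

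Signals below are deposited intensities after quantile normalisation over the tested genes. Changes are log2 differences of group means of log2(signal + 114), which understates the change of dim genes, and each is given with its standard error. A change was called when limma's moderated test gave a Benjamini-Hochberg adjusted p below 0.05 over all 5656 genes. Level comparisons between genes were avoided, since probe sets differ in brightness for the same amount of RNA.

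The arrays differed in quality with time. The mean signal of 19 non-yeast probe sets, a measure of background, was 85.4 to 105 on the control arrays, 57.7 to 94.7 at 10 min, 49.0 to 64.2 at 30 min and 42.8 to 57.1 later in heat. The ratio of the 3′ to the 5′ probe set, a measure of RNA quality, was 1.98 to 2.81 on control arrays and 2.97 to 5.62 on heat arrays for SRB4. It was 2.15 to 2.76 and 2.24 to 4.54 for SPT15, and 0.898 to 1.01 and 0.947 to 1.19 for ACT1, both of which overlap. The part of these ratios in the changes below was not tested. A fit with the background level as a term was run, and its counts are given beside the counts of members. From 30 min on, no heat array reached the background of any control array. In comparisons with control at those times this fit therefore cannot tell heat from background. Shares of all genes given below belong to the main fit.

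All 57 measured members gave a lower signal within 10 min of the shift, and at 30 min all 57 were lower than at 0 min in control. At 10 min the median change was -1.44, against -0.04 over all tested genes, and 38.8% of all genes were called lower. At 30 min the median member change was -1.78, against 0.00 over all genes, and 40.2% of all genes were called lower. Of the 57, 42 at 10 min and 48 at 30 min were called and at least 2-fold lower on this scale, against 429 and 802 of all 5656 genes. On every one of the 3 arrays at 30 min each member lay below all 3 control arrays at 0 min, a pattern that 41.0% of all tested genes also showed.

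Much of the signal was lost and much of it came back. The median member kept 23.6% of its control signal at 10 min and 14.8% at 30 min, and then stood at 57.5% after 60 min of heat, at 55.8% by 120 min, at 63.9% by 240 min and at 76.0% by 360 min. The single arrays of a group lay close together at 10, 30 and 360 min, and further apart at 120 min. The median member difference from the control mean was -1.49, -1.40 and -1.51 on the 3 arrays at 10 min, -1.79, -1.73 and -1.76 at 30 min, and -0.29, -0.31 and -0.28 at 360 min. At 120 min it was -0.71, -0.66 and -0.53 in heat and -0.24, 0.02 and -0.09 in control. The heat groups at 10 and 30 min did not overlap with any later group in this measure.

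**Figure D1:**
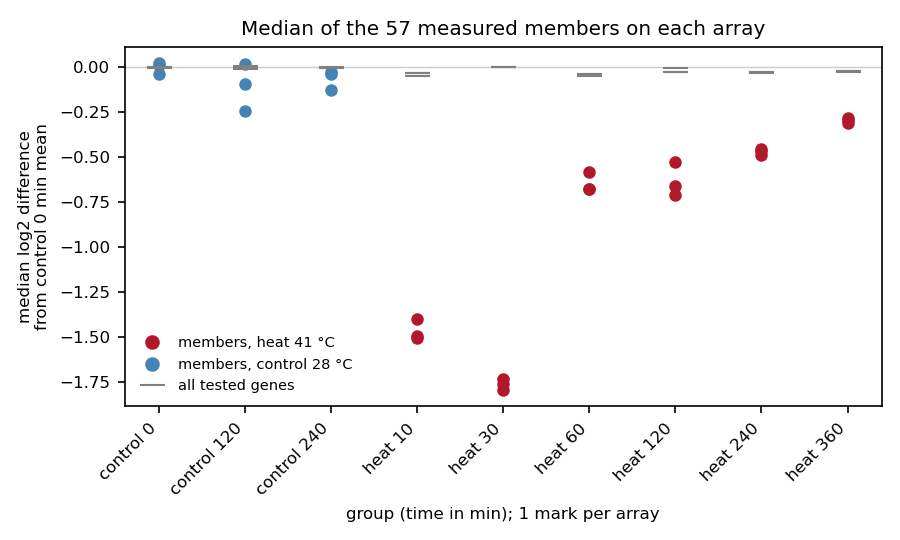
Median log2 difference of the 57 measured members from the control mean at 0 min, 1 point per array, for the 9 groups, with grey dashes for the median of all tested genes. The 3 arrays at 30 min sit between -1.79 and -1.73 and those at 360 min between -0.31 and -0.28, while the dashes stay near 0.

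At the bottom of the fall many members were no brighter than the background. In the control at 0 min the mean deposited signal of 1 member, UTP4, lay below the highest non-yeast mean of the same group's arrays. This held for 19 members at 10 min and 22 at 30 min, then for 0 at 60 min. At 30 min they included NOP56, UTP4, UTP5, UTP6, UTP7, UTP9, UTP13, UTP14, SOF1, ENP2, NOP6 and NOP14. The others then were NOP7, NOP12, NOP15, NOP53, NOC2, NOC3, RRP15, RLP7, NIP7 and RRS1. For the members below background at 10 or 30 min, other than UTP4 and NOP14, the fall is shown but its size is not. A transcript below background can be lower by any factor. For UTP4, below background in control too, a lower signal is shown but not a fall of the transcript. For NOP14, just above background in control at 0 min and below it in control at 120 min, the fall is less certain.

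**Figure D2:**
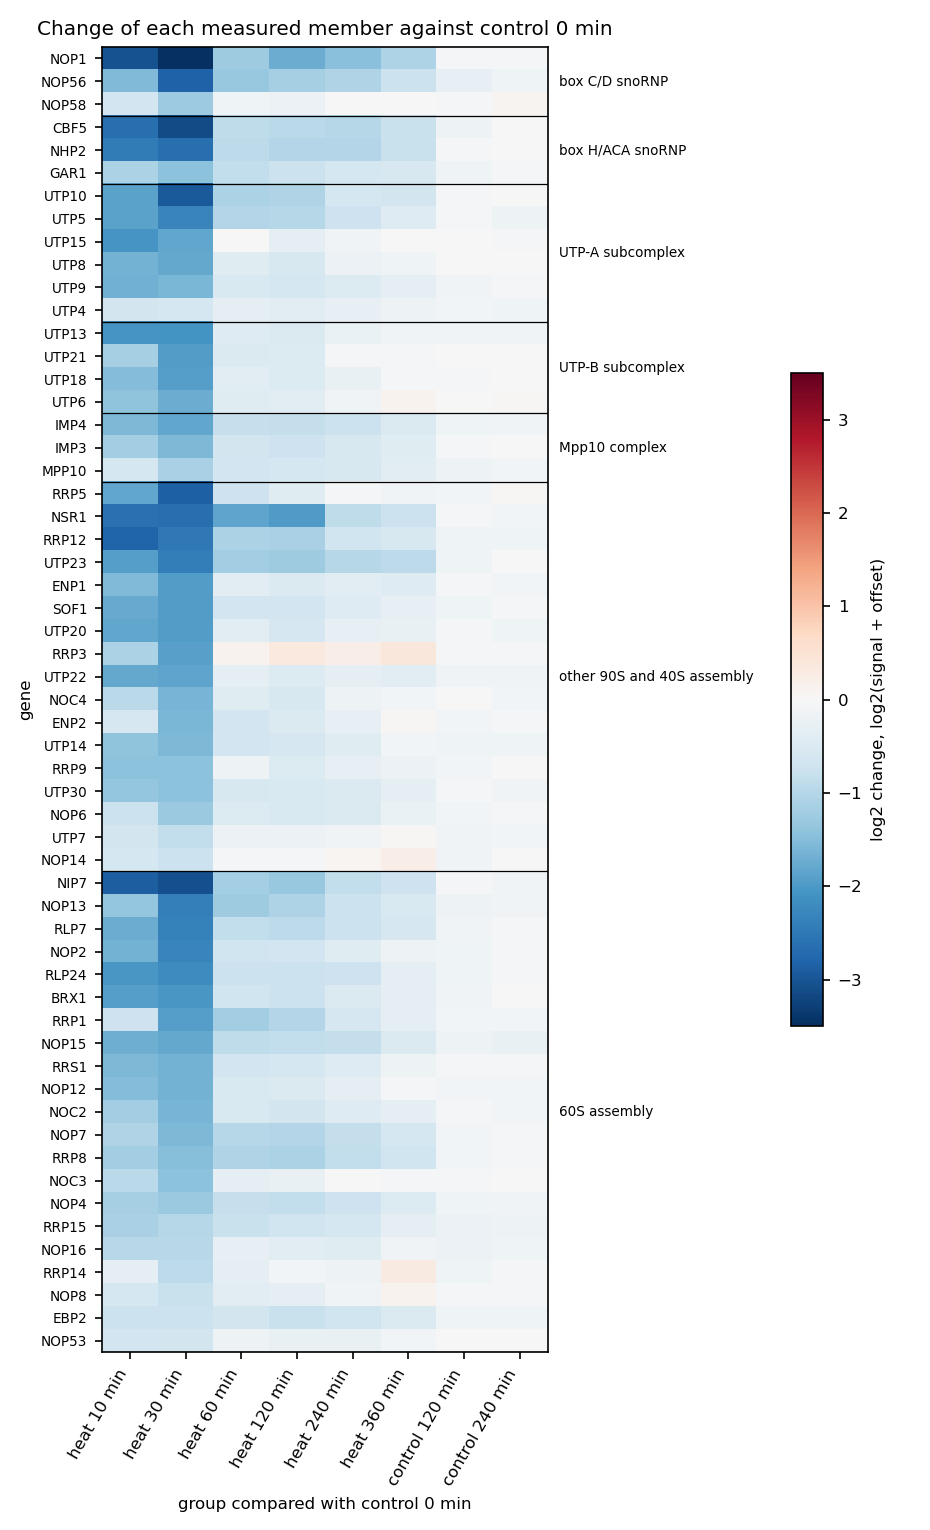
Log2 change of each measured member (rows, grouped by role and ordered by the change at 30 min) against the control at 0 min, for 6 heat times and 2 later controls (columns), blue for lower and red for higher. The columns at 10 and 30 min are blue in all 57 rows, and the control columns stay near 0, the largest change there being -0.28.

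Among the box C/D snoRNP genes, NOP1, which encodes the ribose methyltransferase known as fibrillarin in other species, had the largest fall on the log2(signal + 114) scale at both early times. Its signal was 3855, 3876 and 3745 on the control arrays at 0 min, 352, 526 and 258 at 10 min and 240, 265 and 203 at 30 min. It was 1408, 1618 and 1661 at 60 min, 1132, 1081 and 1010 at 120 min, 1435, 1075 and 1464 at 240 min and 1604, 1787 and 1820 at 360 min. All heat arrays lay below all control arrays, and those at 10 and 30 min below all later ones. The change of NOP1 was -3.04 ± 0.13 at 10 min, -3.50 ± 0.13 at 30 min (limma adjusted p = 2.01e-17) and still -1.09 ± 0.13 at 360 min (limma adjusted p = 1.56e-07). With the background level as a term the change at 360 min was -0.43 and was not called (limma adjusted p = 0.112). The share of control signal left was 9.90% at 10 min and 6.17% at 30 min. NIP7, RRP12, UTP9, NOP15 and UTP13 had lower shares at 10 min, and NIP7 and NOP56 at 30 min, all of them at or below background then, so their true falls may be larger. At 360 min the signal of NOP1 was 45.4% of control, the lowest share of any member.

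NOP56, a core protein of the same particle, changed by -1.53 at 10 min and -2.83 at 30 min. Its signal at 30 min was below background, so the difference of -1.30 between these times is not a measure of size. It was called lower at all 6 heat times and stood at -0.74 at 360 min. NOP58, the partner of NOP56, had a smaller change on the probe set used, -0.68 at 10 min and -1.27 at 30 min, and 0.02 at 360 min. Its 4 probe sets disagree. The brightest, which was used, gave -1.23 at 30 min in a fit of all probe sets that name 1 gene, while the other 3 gave -3.20, -2.83 and -1.77. At 360 min the 3 dimmer sets gave -0.45, -0.49 and -0.78, and the brightest 0.04. With the mean of all its probe sets NOP58 was called lower at 60, 240 and 360 min, at -0.61, -0.56 and -0.42, so its place among the members with small change depends on the probe set.

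**Figure D3:**
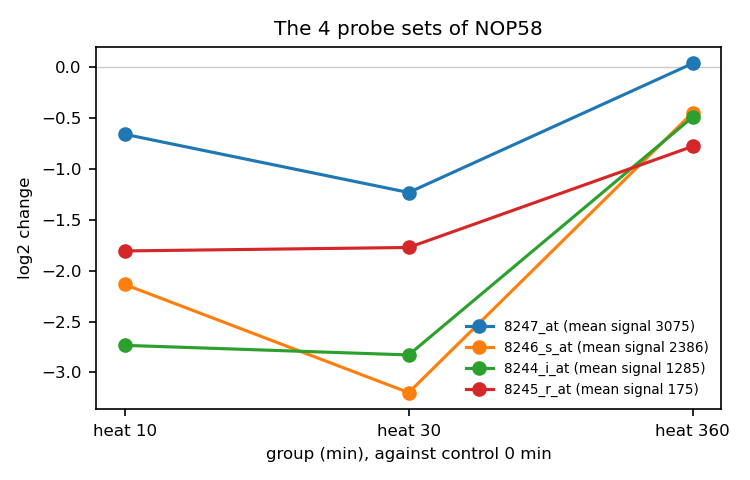
Log2 change of the 4 probe sets of NOP58 at 10, 30 and 360 min of heat against the control at 0 min, 1 line per probe set. At 30 min the brightest set stands at -1.23 and the others between -3.20 and -1.77.

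The 3 measured box H/ACA genes were called lower at all 6 heat times, and at 360 min they stood between -0.78 and -0.55. CBF5 encodes the pseudouridine synthase. Its signal was 2166, 1973 and 2174 in control at 0 min, 271, 246 and 220 at 10 min and 169, 185 and 74.3 at 30 min. It was 1076, 1116 and 1033 at 60 min and 1185, 1209 and 1129 at 360 min, so that the arrays at 60 and 360 min lay close together and below all control arrays. Its change was -3.14 ± 0.14 at 30 min (limma adjusted p = 6.42e-16), -0.90 at 60 min and -0.78 ± 0.14 at 360 min. The fit with the background term gave -0.56 at 360 min (limma adjusted p = 0.123). NHP2, which binds the guide RNA within the particle, followed closely, with -2.64 at 30 min, -0.93 at 60 min and -0.77 at 360 min. GAR1, a further core protein, changed less, -1.43 at 30 min and -0.55 at 360 min.

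UTP-A is the subcomplex that joins the nascent precursor first. Its 6 members were all called lower at 10 and 30 min, with a median of -1.79 at 30 min. UTP10, a large scaffold protein, was at -1.88 at 10 min and -2.95 at 30 min, and UTP5 at -1.88 and -2.30. UTP5 and UTP9 were below background at 30 min, so the sizes of their falls there cannot be read. UTP15 was at -2.05 at 10 min, where its signal was below background, and was the 1 member called higher at 30 than at 10 min, by 0.24. It had returned to 99.6% of control at 60 min, with a change of -0.01, then fell again by 0.30 between 60 and 120 min. UTP8 and UTP9 changed by -1.78 and -1.60 at 30 min and differed at 360 min, where UTP9 was called lower (-0.33) and UTP8 was not (-0.16), a difference between genes that was not tested.

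UTP4, the dimmest member of UTP-A, had the smallest change of all members at 30 min, -0.62. Its signal was 89.3, 113 and 80.6 in control, a level at the background, 20, 20 and 20 at 10 min and 22.6, 20 and 20 at 30 min. The value 20 is the lowest that the deposited table holds. The arrays of control and early heat do not overlap, but the background fell as well. Neither a fall of the transcript nor its size can be read from them, and neither can the place of UTP4 in the order of the falls. NOP14 and NOP53, also among the small changes, are dim as well, with means just above background in control at 0 min. The mean of NOP14 lay below background in control at 120 min.

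UTP-B binds after UTP-A, and 4 of its genes are among the members. At 30 min they were between -2.10 (UTP13) and -1.74 (UTP6), with UTP21 at -1.95 and UTP18 at -1.93, and UTP6 and UTP13 were below background. At 60 min they were between -0.49 and -0.37, all called lower, but with the background level as a term UTP6 (-0.20) and UTP18 (-0.08) were not. By 360 min none of the 4 was called by limma, also at an unadjusted p below 0.05, with changes of 0.13 for UTP6, -0.06 for UTP21, -0.08 for UTP18 and -0.12 for UTP13, and signals of 90.8% to 111% of control. At that time 35.2% of all genes were called lower. PWP2 and DIP2, also UTP-B subunits, stand in a list of other assembly factors and were named after their values were seen, at -1.38 and -2.00 at 30 min and -0.09 and 0.05 at 360 min.

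The Mpp10 complex links the U3 small nucleolar RNA to the precursor, and 3 of its genes were measured. MPP10, IMP3 and IMP4 changed by -1.13, -1.58 and -1.82 at 30 min, and all 3 were lower at 30 than at 10 min, by 0.24 to 0.51. They were between -0.82 and -0.64 at 60 min and between -0.51 and -0.40 at 360 min, called lower at all 6 heat times, except that with the background level as a term IMP3 was not called at 240 min (-0.28) or 360 min (-0.09). In this complex the signal at 360 min was 65.4% to 70.8% of control.

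The 17 further factors of the 90S particle and of 40S assembly ranged from -2.79 to -0.59 at 10 min and from -2.86 to -0.76 at 30 min. All 17 were called lower at 10 and 30 min, 15 at 60 min and 10 at 360 min, when 2 were called higher. RRP12, a repeat protein that acts in the export of both subunits, had 1271, 1235 and 1202 in control, 63.6, 84.6 and 98.0 at 10 min and 128, 111 and 140 at 30 min. It was 321, 641 and 632 at 60 min and 843, 830 and 758 at 360 min, with 1 array at 60 min apart from the other two. Its change was -2.79 ± 0.14 at 10 min, a level near background, and -2.49 ± 0.14 at 30 min, where the difference of 0.30 from 10 min was not called.

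RRP5, a factor needed for both subunits, made the largest rise from 30 to 360 min on the log2(signal + 114) scale. Its signal was 1836, 1742 and 1911 in control, 449, 477 and 383 at 10 min and 150, 169 and 145 at 30 min. It was 1025, 1087 and 1043 at 60 min, 1049, 1446 and 1561 at 120 min, 1868, 1646 and 1755 at 240 min and 1617, 1765 and 1678 at 360 min. The arrays at 240 min overlap with the control arrays. The change was -2.86 ± 0.10 at 30 min, the rise from 30 to 360 min was 2.75 ± 0.10 (limma adjusted p = 6.45e-17), and the change at 360 min was -0.11 ± 0.10 (limma adjusted p = 0.353). By signal the rise was 10.9-fold, against 14.1-fold for NIP7, whose value at 30 min was below background.

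NSR1, the yeast relative of nucleolin, was still low at 120 min. Its signal was 2236, 2447 and 2290 in control at 0 min, 319, 323 and 216 at 10 min, 303, 281 and 259 at 30 min, 513, 622 and 552 at 60 min and 476, 583 and 463 at 120 min. It then stood at 1233, 1147 and 1249 at 240 min and 1182, 1439 and 1378 at 360 min. The 3 arrays at 240 min all lay above those at 120 min and below all control arrays. NSR1 was the member with the largest change at 60 min, -1.85, and at 120 min, -1.98 ± 0.10, and at those times kept 24.2% and 21.8% of control, the lowest shares of any member.

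ENP2, a nucleolar protein of the 90S particle, was among the smallest falls at 10 min and fell most of the way after that. Its signal was 426, 381 and 415 in control, 220, 204 and 275 at 10 min, 53.2, 64.5 and 57.4 at 30 min, 194, 209 and 235 at 60 min and 391, 447 and 425 at 360 min. No array at 10 or 30 min reached the control range, and the 30 min arrays were at the background level. The change went from -0.59 ± 0.09 at 10 min to -1.60 ± 0.09 at 30 min, and was 0.04 ± 0.09 at 360 min.

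NOP14, which pairs with NOC4 in the 90S particle, had 123, 92.4 and 125 in control, 30.7, 35.9 and 39.9 at 10 min, and the floor value of 20 on all 3 arrays at 30 min. It was 148, 154 and 154 at 360 min, above all 3 control arrays at 0 min. NOC4, much brighter, changed by -0.93 at 10 min, -1.61 at 30 min and -0.10 at 360 min. UTP23, a factor of early precursor cleavage, stood low to the end, at -2.41 at 30 min, -1.23 at 60 min and -0.90 at 360 min, where 49.1% of its control signal was present. RRP9, a protein particular to the U3 snoRNP, was at -1.45 at 30 min and -0.17 at 60 min. SOF1, ENP1, UTP20, UTP22, UTP14, UTP30, NOP6 and UTP7 were between -1.97 and -0.85 at 30 min. UTP20 and UTP22 have 10 and 6 probe sets, of which 7 and 5 were above background in control. These were all called lower at 30 min, from -1.94 to -0.65 and from -1.82 to -0.25, and the dimmer ones show no size. At 360 min their brighter sets gave -0.24 and -0.34 while others reached -1.02 and -1.09.

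**Figure D4:**
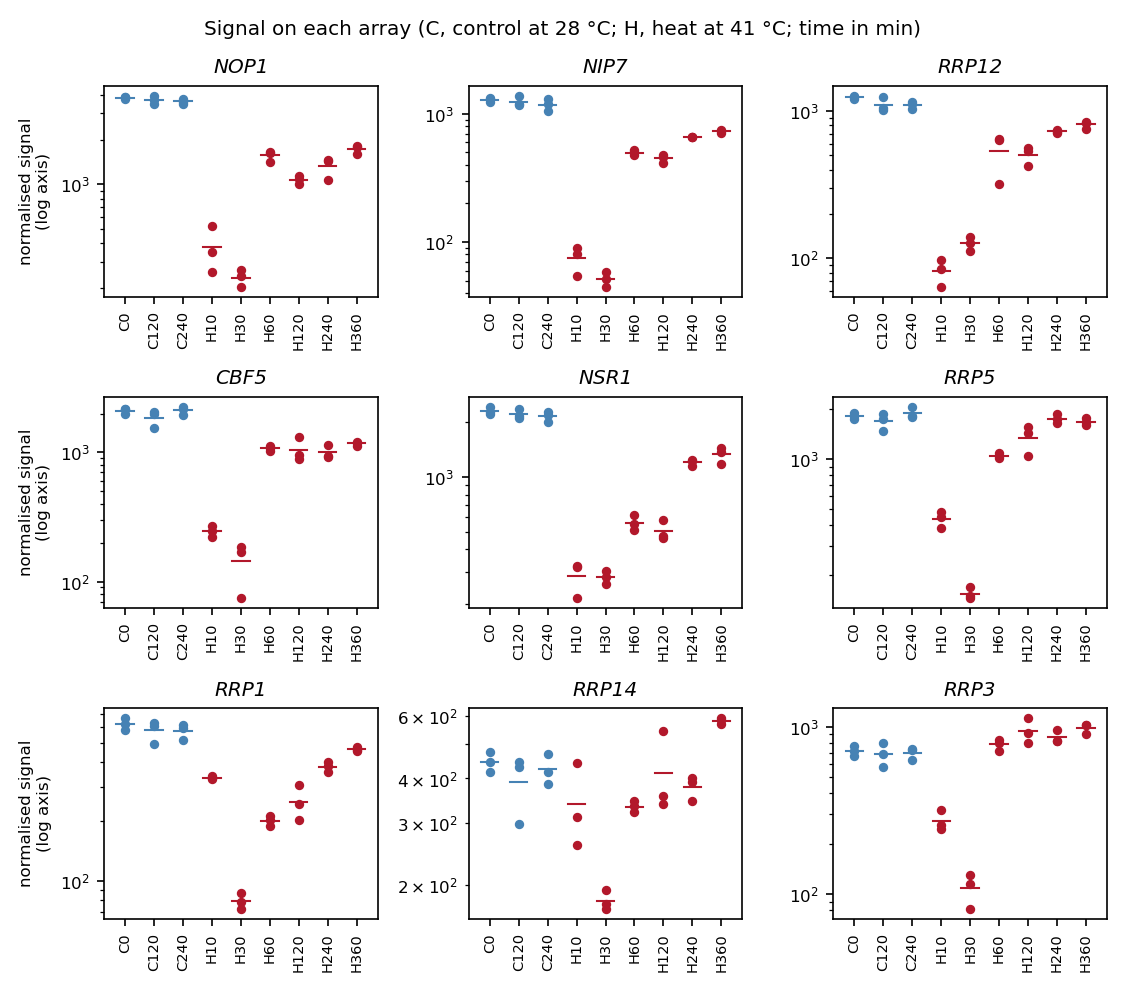
Normalised signal of 9 members on each of the 27 arrays, on a log axis that differs between panels, with a bar at each group mean and the groups labelled C for control at 28 °C and H for heat at 41 °C with the time in min. NOP1 ends at 1604 to 1820 against 3745 to 3876 at the start, RRP5 ends inside or near its control range, and NSR1 steps from 463 to 583 at 120 min to 1147 to 1249 at 240 min.

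The 21 factors of 60S assembly were all called lower at 10, 30 and 60 min, and 14 of them at 360 min, when 1 was called higher. NIP7, an RNA-binding protein found in pre-60S particles, had 1309, 1319 and 1228 in control, 80.3, 90.6 and 54.7 at 10 min and 51.8, 58.8 and 44.5 at 30 min. It was 477, 501 and 519 at 60 min and 713, 742 and 732 at 360 min. At 10 and 30 min its signal was no higher than the background, so the change of -3.08 ± 0.08 and the remaining share of 4.02% at 30 min are limits set by that background. At 360 min it was at -0.73 ± 0.08 (limma adjusted p = 2.24e-08).

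RRP1, an early pre-60S factor, had 621, 578 and 669 in control, 330, 327 and 340 at 10 min, 87.4, 72.1 and 78.7 at 30 min, 203, 212 and 190 at 60 min and 458, 478 and 455 at 360 min. It lost less than most members by 10 min, -0.72 ± 0.08, and fell by 1.21 more to 30 min, where it stood at -1.93 ± 0.08. NOP13, an RNA-binding protein, and NOP2, an rRNA methyltransferase, also fell further between 10 and 30 min, by 1.04 and 0.64, and reached -2.38 and -2.30. RLP7 and RLP24, which resemble ribosomal proteins of the large subunit, were at -2.36 and -2.21 at 30 min. RLP7 was below background then, so the size of its fall cannot be read.

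EBP2, which works with the Brix-domain protein BRX1, hardly moved after its first fall. At 10 min its mean lay below background, so the size of that fall cannot be read, while at 30 min its mean lay above background. Its signal was 254, 268 and 240 in control, 117, 112 and 91.5 at 10 min, 115, 111 and 88.6 at 30 min, 126, 122 and 115 at 60 min and 99.8, 90.7 and 108 at 120 min. It was 109, 134 and 99.1 at 240 min and 144, 146 and 152 at 360 min, so that all 18 heat arrays lay below all control arrays. EBP2 had the largest remaining share of any member at 30 min, 41.3%, the only lowest point at 120 min, and the smallest rise from 30 to 360 min, 0.26 ± 0.06 (limma adjusted p = 0.000644). BRX1 itself took the usual course, with -2.05 at 30 min and -0.34 at 360 min.

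RRP14 had the smallest fall at 10 min, -0.33 ± 0.13 (limma adjusted p = 0.0284). Its signal was 475, 417 and 446 in control, 312, 261 and 443 at 10 min, 171, 177 and 193 at 30 min and 568, 594 and 583 at 360 min. The arrays at 10 min overlap with control, the only member for which they do. Of all tested genes, 39.2% had all arrays at 10 min below control. The call for RRP14 was lost in 5 of the alternative settings, at -0.33 to -0.20. At 30 min all arrays were lower and the change was -0.93 ± 0.13. NOP53, a dim gene, had 126, 112 and 124 in control, 35.9, 24.2 and 41.2 at 10 min and 39.6, 28.0 and 39.6 at 30 min, and its change of -0.65 at 30 min is again limited by background. NOP7, NOP4 and RRP8, an rRNA methyltransferase, returned slowly and were at -0.60, -0.46 and -0.69 at 360 min.

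Between 10 and 30 min 32 members fell further, UTP15 rose, and 24 were not called, while 26% of all genes were called lower. In the fit with the background term 30 fell further: NOP1, CBF5, UTP6, UTP18, IMP3, RRP8 and NIP7 were no longer called, at -0.40 to -0.11, and UTP14, UTP20, SOF1, NOP14 and NOP4 were. Of the 32 in the main fit, 21 were above background at both times. UTP7, NOC2, NOC3 and NIP7 were below it at both, so for these 4 a lower signal is shown but not a further fall of the transcript. Of the 24 not called, 11 were below background at both times, where no further fall could be seen. The lowest of the 6 heat means was at 30 min for 49 members and at 120 min for EBP2. For the other 7 (UTP4, UTP9, UTP15, RRP12, NOP16, NOP53 and RRP15) it was at 10 min, where all 7 were below background, so the order of the early times cannot be read for them. Further falls of 1 or more were those of NOP56, RRP1, UTP10, NOP13, RRP5 and ENP2, with NOP56 and ENP2 below background at 30 min. The 32 hold all 3 box C/D and all 3 Mpp10 genes, 8 of 17 other 90S and 40S factors and 11 of 21 of 60S assembly, and the roles were not tested against each other.

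The return began between 30 and 60 min. In that step 55 members rose, by a median of 1.13, and 32.2% of all genes did. RRP15 (0.22) and EBP2 (0.10) were not called. The largest rises were those of NOP1 (2.26), CBF5 (2.24), RRP5 (2.12) and RRP3 (2.02). From 60 to 120 min little moved: RRP5 rose by 0.31, NOP1, UTP15 and RRP9 fell by 0.49, 0.30 and 0.29, and 53 members were not called, while 34% of all genes were called in one direction or the other.

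The rise went on later for some members. From 120 to 240 min 17 members rose and 0 fell by limma, against 10% of all genes called higher. At an unadjusted p below 0.05 these were 27 and 0, against 15.9% of all genes higher, with NSR1 first at 1.10 and NIP7 and UTP10 next at 0.46. The count of 17 was 10 without replicate 1 of heat at 120 min and 26 without replicate 3, so 1 array sets it within wide limits. From 240 to 360 min 13 rose and 0 fell by limma, against 3.91% of all genes called higher, and 26 and 0 unadjusted, against 11.7% of all genes, with RRP14 first at 0.50. The count of 13 was 0 to 6 when any 1 array of the 2 groups was left out. Over the whole of the recovery, from 30 to 360 min, all 57 rose, by a median of 1.51, and 35.6% of all genes did.

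Fewer members were lower than control at each later time from 120 min on. At 60 min 53 members were lower than control at 0 min, with 37.4% of all genes lower, and NOP58, UTP15, NOP14 and RRP3 were not called. At 120 min 54 were lower and RRP3 was higher, against 36.2% and 32.7% of all genes. At 240 min 45 were lower, against 34.1%. At 360 min 36 were lower and 3 higher, against 35.2% and 31.8%, with a median of -0.32. The 36 include all 3 box H/ACA genes, 2 of 3 box C/D, 4 of 6 UTP-A, 0 of 4 UTP-B, all 3 Mpp10 genes, 10 of 17 other 90S and 40S factors and 14 of 21 of 60S assembly, counts that were not tested against each other. The same 36 members were lower at each of the 6 heat times. On the values as deposited, without normalisation, 23 were lower and 9 higher at 360 min, the median member was at -0.10 and the median of all genes at 0.13. The shares of all genes above belong to the normalised main fit. None are given for the values as deposited or for the background term, so those counts cannot be set against them. With the background level as a term 47, 47, 39 and 26 members were lower at 60, 120, 240 and 360 min, and 0 were higher. Background did not overlap between the control arrays and these heat arrays, so a call lost in this fit cannot be assigned to background or to heat. The 13 members that lost the call at 360 min were NOP1, CBF5, UTP10, IMP3, RRP9, UTP22, ENP1, RRP12, NSR1, RRP15, RLP24, BRX1 and RRS1, at -0.67 to -0.09, while UTP7, NOP16 and NOP53 gained it.

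Controls of the same time gave these counts. At 120 min 51 members were lower and 1 higher than the control at 120 min, against 35.6% and 33.3% of all genes, with a median of -0.54. At 240 min 42 were lower and 1 higher than the control at 240 min, against 33% and 28.3%, with a median of -0.38. The fit with the background term gave 45 and 34 lower and 0 higher. None of the 57 was called at 120 or 240 min against 0 min, where 0% and 0.0707% of all genes were called by limma, and the members' medians were -0.10 and -0.07. At an unadjusted p below 0.05 the members lower in control were 5 at 120 min and 3 at 240 min, or 8.77% and 5.26% of the members against 0.743% and 1.64% of all genes, and 0 were higher.

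**Figure D5:**
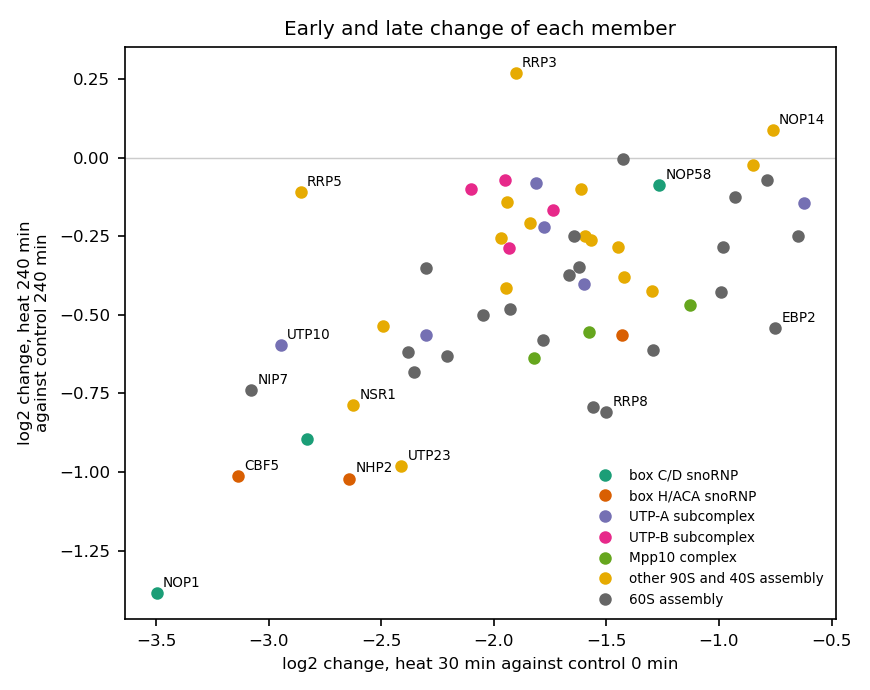
Log2 change of each member at 30 min against the control at 0 min (horizontal) and at 240 min against the control at 240 min (vertical), 1 point per gene, coloured by role. The comparisons share no array. NOP1 lies lowest on both axes (-3.50 and -1.39), RRP5 fell by 2.86 at 30 min but lies at -0.11 at 240 min, the 4 UTP-B genes of the list lie between -0.29 and -0.07 there, and RRP3 and NOP14 lie above 0.

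Members called higher in heat were few. RRP3, a DEAD-box RNA helicase of 40S assembly, had 712, 670 and 764 in control at 0 min, 259, 244 and 318 at 10 min, 114, 81.1 and 130 at 30 min and 836, 803 and 716 at 60 min. It was 796, 916 and 1135 at 120 min, 819, 824 and 957 at 240 min and 905, 1020 and 1025 at 360 min, all 9 of these arrays above the control arrays at 0 min. The change was -1.90 ± 0.11 at 30 min and 0.40 ± 0.11 at 360 min (limma adjusted p = 0.00329). NOP14 and RRP14 were called higher at 360 min, at 0.23 and 0.31. With the background level as a term the 3 changes at 360 min were -0.18 for RRP3, -0.02 for NOP14 and -0.14 for RRP14, none of them higher. The call for RRP14 was also lost when any 1 of 5 arrays was left out, and that for NOP14 without replicate 2 of the control at 0 min.

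The heat effects at 240 and 120 min, each against its own control, were compared directly. The difference was called for 7 members, all smaller effects at 240 min, while 5.45% of all genes were called in this direction. At an unadjusted p below 0.05 the difference (240 minus 120 min) was positive for 14 members and negative for 0, against 11.7% and 13.7% of all genes. NSR1 led with 1.13 ± 0.14 (limma adjusted p = 1.93e-05), its change being -1.92 at 120 min and -0.79 at 240 min. NIP7 followed with 0.53 (limma adjusted p = 0.00322). Both were called in all 23 alternative settings. The others were NOC4, RRP1, UTP20, UTP21 and UTP8, of which UTP20 was at 0.02 with the mean of all its probe sets. Without replicate 2 of the control at 240 min 3 members were called.

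Most members shared one profile. The Pearson correlation of a member's 9 group means with the median of the other members had a median of 0.967 and was lowest for EBP2 (0.747), RRP14 (0.793) and RRP1 (0.829). The points share their arrays, and the correlation is given as a description. EBP2 had a flat course after 10 min and RRP14 a late rise above control. RRP1 had a small early loss and only 32.4% of its control signal at 60 min. ENP2, and NOP58 on the probe set used, lost less than RRP1 at 10 min but correlated at 0.890 and 0.939. The dimmer probe sets of NOP58 gave -2.14, -2.73 and -1.81 at 10 min, larger falls than that of RRP1. Which trait sets a member apart was not tested. Of the genes outside the list, the 10 with the highest correlation with the median member were MAK5 (0.999), DIM1, TRM1, PUS1, MAK21, BUD14, RPF2, YBR242W, RPA49 and URA7 (0.993). MAK5, MAK21 and RPF2 encode 60S assembly factors, DIM1 an rRNA methyltransferase, RPA49 a subunit of RNA polymerase I, TRM1 and PUS1 enzymes that modify tRNA and URA7 CTP synthase.

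Other assembly factors, outside the list, were measured as well. Of 40 other 60S factors 38 were lower at 10 min, 40 at 30 min and 26 at 360 min, with medians of -1.26, -1.75 and -0.28. Of all genes, 38.8%, 40.2% and 35.2% were called lower at these times. NSA2 and NMD3, which act in late and exporting pre-60S particles, were at -0.73 and -1.02 at 10 min and -2.75 and -2.67 at 30 min, and RPF2 at -2.16 and -2.51. Of 36 other 90S and 40S factors 35 were lower at 10 min and 34 at 30 min, against 38.8% and 40.2% of all genes, with medians of -0.86 and -1.39. At 360 min 10 were lower and 6 higher, against 35.2% and 31.8% of all genes, with a median of 0.04. PRP43, an RNA helicase also used in splicing, went from -0.33 at 10 min to -2.65 at 30 min, its mean signal from 1377 to 1073 to 125. EMG1, an rRNA methyltransferase, and TSR1, a 40S factor, were at -2.57 and -2.38 at 30 min. RIO1, named after its value was seen, was the 1 gene of this list called higher at 30 min, at 0.39.

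The exosome trims ribosomal RNA precursors and many other RNAs. Of 14 genes of the exosome and its cofactors, 13 were lower at 10 min and 14 at 30 min, against 38.8% and 40.2% of all genes, with medians of -0.57 and -0.90. At 360 min 3 were lower and 3 higher, against 35.2% and 31.8% of all genes. MTR4, the helicase that feeds it, was at -1.80 at 30 min, RRP6, its nuclear exonuclease, at -1.68, and CSL4, a cap subunit, at -1.33. Set beside the members, these genes and the other 40S factors had smaller medians at 30 min. The lists were not tested against each other.

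Transcripts of 12 regulators of ribosome genes went in both directions. At 10 min 3 were higher and 4 lower, against 33.8% and 38.8% of all genes, and at 30 min 5 were higher and 3 lower, against 40.7% and 40.2%, so their counts lie near or below the background shares. STB3, a repressor that binds a promoter element of these genes, rose by 0.47 at 10 min and 0.89 at 30 min, its mean signal going from 312 to 482 to 681. TOD6, a repressor acting through another such element, changed by -1.22 and -0.99, while its paralogue DOT6 (-0.15 and -0.09) was not called at either time. SCH9, a kinase of the TORC1 pathway, changed by -1.43 and -0.67. IFH1, the activator of ribosomal protein genes, was at -0.94 at 10 min, fell to a mean signal of 276 at 30 min from 665 in control, and was at 0.63 at 360 min, while its partner FHL1, a dim gene, was at -0.14 and 0.13. SFP1, an activator of ribosome biogenesis genes, was not called at any heat time, with -0.20 at 10 min and 0.10 at 360 min. TOR1 fell slowly to -0.68 at 360 min. CRF1, a corepressor, and ABF1, a general factor, were at 0.50 and 0.27 at 10 min, HMO1 at 0.46 at 30 min, and RAP1 was called only at 120 min, at -0.20. The mean signal of CRF1 in control at 0 min, 60.9, and that of TOD6 at 10 min, 39.2, lay below background. The sizes of their changes at 10 min therefore cannot be read.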

How the data were processed

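The values deposited by the authors are MAS5 intensities on a linear scale, per the submitters' processing notes. Neither the version of MAS5 nor its scaling target is given here, and no deposited intensity lies below 20. Of 9335 probe sets, 6504 name 1 gene in the probe annotation. The brightest over all arrays was used for each gene, which left 5656 tested genes. Detection calls were not used.

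Array medians over these genes had a highest to lowest ratio of 1.28, and quantile normalisation was applied. To each value 113.8, the 10th percentile, was added before log2 was taken. limma 3.58.1 in R 4.3.3 (lmFit, eBayes with trend) was fitted to all 27 arrays with a mean for each group, and p was adjusted by Benjamini-Hochberg within each of 18 comparisons, with 0.05 as the threshold. The fit was also run on simulated data, with independent noise and a small share of genes changed in a single heat group. Far more genes were called in the heat comparisons here, so that run does not test the normalisation under such wide changes. Comparisons with the control at 0 min share its 3 arrays, so their changes are not independent.

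The members and gene lists were chosen with earlier results of these data known, and no list is offered as independent support. Every member could be named. Values on each array were given for the 3 largest and 3 smallest changes at 10 and 30 min, the 2 largest and 2 smallest rises from 30 to 360 min and the 3 least typical profiles, and in addition for NSR1 and RRP3, added after their values were seen. From each other list the 3 largest changes at 30 min were named, and all regulators. Alternatives changed the scaling, offset, filter on dim genes, probe sets, variance model, arrays in the fit, replicate and culture blocks, background term and each array in turn. The number of arrays limits the precision.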

Additional observations from a re-analysis of the deposited data

Results flagged for a closer look

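In the test of the difference between the heat effects at 240 and 120 min, each against the control of its own time, 7 members differed. The log2 difference (240 min minus 120 min) was 1.13 for NSR1, 0.53 for NIP7, 0.48 for NOC4, 0.44 for RRP1, 0.39 for UTP20, 0.39 for UTP21 and 0.36 for UTP8. All 7 are positive, so the heat effect on these genes was less negative at 240 min. Over the 23 alternatives, the difference was past the threshold in 23 for NSR1 and NIP7, 22 for UTP21, 18 for NOC4 and RRP1, 17 for UTP20 and 15 for UTP8.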

How the results depend on the processing

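The falls at 10 and 30 min and the rise from 30 to 360 min were the firmest results: of 2895 recomputed changes of single members, 2890 kept direction and side of the threshold, and the 5 that did not are those of RRP14 at 10 min. The median change moved most with no offset at 10, 30, 120 and 240 min and at 240 min against its own control, and most on the values as deposited at 60 and 360 min and at 120 min against its own control. With no offset it was -2.10, -2.75, -0.80, -0.86, -0.65 and -0.40 at 10, 30, 60, 120, 240 and 360 min, and -0.69 and -0.53 at 120 and 240 min against their own controls. With an offset of 20 these were -1.95, -2.46, -0.78, -0.80, -0.61, -0.38, -0.65 and -0.49.

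On the values as deposited the medians were -1.71, -0.52, -0.40, -0.28 and -0.10 from 30 to 360 min, and -0.37 and -0.28 at 120 and 240 min against their own controls. The median of all genes then moved to 0.14 at 120 min and 0.13 at 360 min, from -0.02 and -0.03, and all late changes are relative to it. Other medians that moved by more than the spread between arrays were, with a common array median, -1.50 at 10 and -0.29 at 360 min. Without dim genes they were -1.53, -1.81 and -0.49 at 10, 30 and 240 min, with the mean of all probe sets -1.73 at 30 and -0.28 at 360 min, and with the background term -0.57 and -0.36 at 240 and 360 min and -0.46 at 240 min against its control. Leaving out 1 array moved no median by more than that spread.

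Counts of members called in the later steps were less stable. From 60 to 120 min the 4 became 2 in a fit of these groups alone, and 3 to 7 with 1 array left out. From 120 to 240 min the 17 became 11 as deposited, 8 in these groups alone and 10 to 26 with 1 array left out. From 240 to 360 min the 13 became 6 with no offset and 0 to 6 with 1 array left out. The 7 in the difference of the heat effects became 4 as deposited and 3 to 7 with 1 array left out. With the background level as a term, 67 of 912 changes of single members lost their call, 20 gained one and 7 turned direction. Directions of called members turned in 10 cases over all settings. With the background term these were RRP3 (-0.17 at 120, -0.18 at 360, -0.13 and -0.23 at 120 and 240 min against their controls), UTP18 (0.0148 at 240 min), NOP14 (-0.0181) and RRP14 (-0.14) at 360 min. As deposited they were RRS1 (0.0703 at 360 min) and NOC3 (0.0103 at 120 min against its control), and with the mean of all probe sets UTP20 (-0.0437 from 120 to 240 min). The cause was not tested.

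The replicate numbers were not shown to pair the samples: same-numbered arrays had a median correlation of deviations of 0.13 within heat, -0.09 within control and 0.00 between them. With the replicate block 57 members were called at 10 and 30 min, 46 at 240 min and 40 at 360 min against the control at 0 min, and 7 in the difference. The planned search for promoter motifs was not run, since no promoter sequences were used here. Signal at or below background limits the size of the fall of 22 members at 30 min.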
